A study of Mus musculus with 37 samples.

Results

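Expression of Btg2 and of 8 further genes that the transcription factor p53 is known to activate was followed in mouse tailbud from 6 to 11 somites. The 9 genes were Btg2, Cdkn1a, Ccng1, Mdm2, Pmaip1, Bbc3, Phlda3, Trp53inp1 and Sesn2, out of 35542 genes in the count table. Btg2 was chosen by its counts, which rose with somite number, and the other 8 as companions that share p53 as an activator. The choice did not name the embryos it rested on, so the rise of Btg2 is given as a description with no test in both genotypes. The control slopes of the other 8 genes are descriptions as well, since the 9 genes were chosen with earlier results of these embryos known.

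RNA-seq had been performed on tailbud tissue of 37 single embryos at embryonic day 8 to 8.5, one library per embryo, to compare embryos with and without maternal SMCHD1, which binds chromatin and keeps genes silent. All embryos were F1 hybrids of a C57BL/6 mother and a Cast father whose 2 Smchd1 alleles were intact. Smchd1wt embryos (Smchd1[fl/+], n = 21) came from mothers with floxed Smchd1 and no MMTV-Cre transgene and served as controls. Smchd1matΔ embryos (Smchd1[del/+], n = 16) came from Smchd1[del/fl] mothers with the MMTV-Cre transgene, whose oocytes lacked SMCHD1. They carried a deleted maternal and an intact paternal allele, so loss of the oocyte supply and loss of the maternal copy cannot be told apart in them. From 6 to 11 somites the groups held 4, 4, 3, 3, 4 and 3 Smchd1wt embryos and 4, 3, 2, 2, 3 and 2 Smchd1matΔ embryos. All embryos with 6 somites and all Smchd1matΔ embryos with 8 or 9 somites were female.

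Library depth was 0.916 to 80.6 (median 12.8) in units of 1e6 counts, and values below are CPM, counts per 1e6 after TMM normalisation. Smchd1, the targeted gene, lay below the Smchd1wt mean of the same stage in 16 of 16 Smchd1matΔ embryos. The tailbud markers T and Cdx2 were detected in 37 of 37 embryos, at 100.2 to 362 and 224 to 432 CPM. Among the 6 somite markers, Pax1 was at 0 in 37 of 37 embryos but Meox1 in only 1. Meox1 reached 38.6 CPM and Tcf15 6.99 CPM, and the summed level of the 6 was 0 to 51.2 CPM. The shallowest libraries were Smchd1matΔ replicate 3 at 6 somites (916444 counts) and Smchd1wt replicate 2 at 7 somites (3061180 counts). Smchd1matΔ replicates 1 and 2 at 6 somites were rich in ribosomal RNA.

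The p53 protein is held at a low level by MDM2, a ubiquitin ligase that marks it for degradation, and is stabilised by DNA damage and other stress. It then binds paired decamers in DNA and activates genes that stop the cell cycle, trigger apoptosis, adjust metabolism or feed back on p53 itself. BTG2 belongs to the BTG/TOB family of antiproliferative proteins, which bring the CCR4-NOT deadenylase to mRNAs. Btg2 also responds to growth factors and to differentiation cues, and in the neural tube it marks progenitors that are about to give rise to neurons.

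Promoter windows of RefSeq (GRCm38.p6, 250 bases before to 50 after each start site) were used for 7 of the 9 genes, 10 windows in all. They were searched on both strands for the p53 half-site, for the p53 element formed by 2 adjoining half-sites with at most 2 mismatches in all, and for the cAMP response element TGACGTCA. Sequences are shown for the 4 genes with a match, so that Btg2 can be set beside the genes with a p53 match. They read 5′ to 3′ along the strand of the gene, they end before the start site, and capitals mark the matches. The Btg2 sequence covers chr1:134079156-134079405 on the minus strand, the Mdm2 sequence chr10:117710910-117710969 on the minus strand, the Ccng1 sequence chr11:40755437-40755506 on the minus strand and the Cdkn1a sequence chr17:29090881-29090972 on the plus strand.
Btg2: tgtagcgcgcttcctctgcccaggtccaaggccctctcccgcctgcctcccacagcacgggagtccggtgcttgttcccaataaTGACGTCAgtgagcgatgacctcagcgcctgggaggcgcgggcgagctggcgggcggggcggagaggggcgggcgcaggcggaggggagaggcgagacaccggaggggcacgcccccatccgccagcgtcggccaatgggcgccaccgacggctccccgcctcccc
Mdm2: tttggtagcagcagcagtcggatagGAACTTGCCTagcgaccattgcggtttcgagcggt
Ccng1: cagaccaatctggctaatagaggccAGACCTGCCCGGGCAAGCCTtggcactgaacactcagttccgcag
Cdkn1a: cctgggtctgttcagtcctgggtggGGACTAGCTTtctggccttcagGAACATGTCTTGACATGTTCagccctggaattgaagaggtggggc

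In the Btg2 window the search found the cAMP response element, 166 to 159 bases before the start site, and no p53 half-site. The Cdkn1a window at the upstream start held 2 half-sites, and the one nearer the start site was the first decamer of a p53 element with 1 mismatch, 51 to 32 bases before the start site. The Ccng1 window likewise held an element with 1 mismatch, 195 to 176 bases before the start site, and the Mdm2 window held a single half-site 186 to 177 bases before it. No match was found in the other Cdkn1a window, at the downstream start, or in the windows of Bbc3, Phlda3 and Sesn2. No window of Pmaip1 or Trp53inp1 was used, so whether their promoters hold a match was not examined. Of all 32851 promoter windows, 8.36% held a half-site, 0.798% an element with at most 2 mismatches, 0.0883% an element with at most 1 mismatch and 1.79% the cAMP response element. These matches are descriptions of the letters in the windows, and binding was not measured. Elements outside the windows, or with bases between the 2 decamers, were not searched for, so the absence of a match is limited to this search.

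Btg2 (ENSMUSG00000020423, chromosome 1, 134075170 to 134079120, GRCm38) had its higher levels at the later stages in both genotypes. In Smchd1wt embryos it was at 21.04, 24.01, 26.3 and 17.8 CPM at 6 somites, at 18.98, 18.4, 26.8 and 19.8 CPM at 7 somites, and at 19.99, 27.6 and 29.3 CPM at 8 somites. It was at 28.1, 50.3 and 41.2 CPM at 9 somites, at 32.6, 42.2, 38.8 and 51.8 CPM at 10 somites, and at 47.9, 80.4 and 48.3 CPM at 11 somites. The first 3 stages thus lay close together, and every embryo with 10 or 11 somites lay above every embryo with 6 to 8. The rise chose the gene, and the slope of 0.29 log2 units per somite (SE 0.032, n = 21) carries no test. Among all genes, 3.13% of 15148 were called as rising and 3.51% as falling with somite number in Smchd1wt embryos.

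In the 16 Smchd1matΔ embryos Btg2 was at 13.4, 11.2, 25.2 and 24.5 CPM at 6 somites, at 24.98, 20.8 and 24.5 CPM at 7 somites, and at 25.99 and 27.6 CPM at 8 somites. It was at 32.6 and 50.4 CPM at 9 somites, at 37.6, 41.7 and 37.1 CPM at 10 somites, and at 48.3 and 49.6 CPM at 11 somites. All 7 embryos with 9 to 11 somites lay above all 9 embryos with 6 to 8. The slope was 0.30 log2 units per somite (SE 0.044, n = 16), and it too carries no test, since these embryos may have entered the choice. The lowest 2 values came from the libraries rich in ribosomal RNA, and the slope was 0.24 without them. Among all genes, 1.93% of 15477 were called as rising and 1.14% as falling in Smchd1matΔ embryos.

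**Figure D1:**
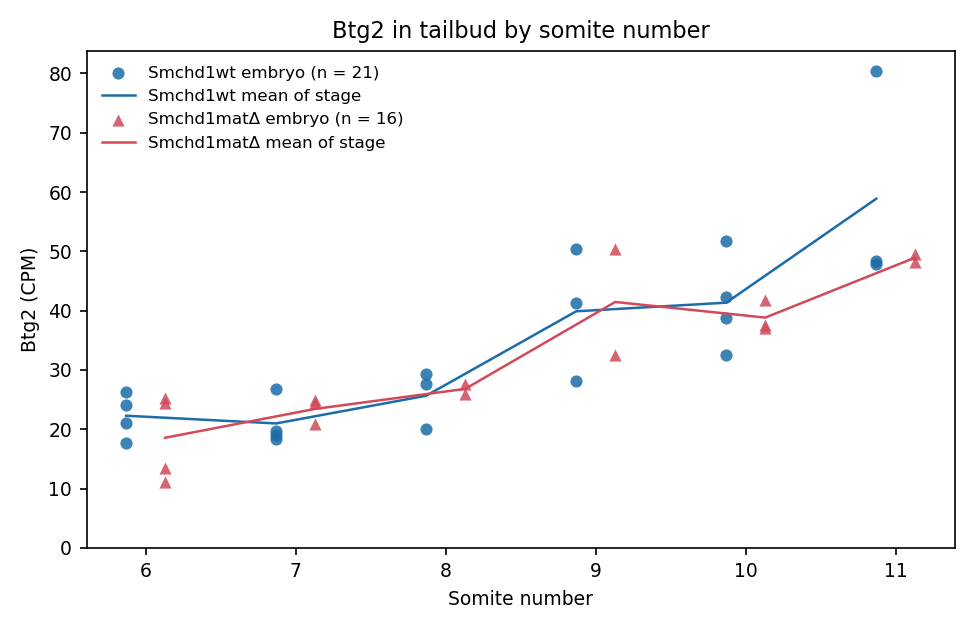
Btg2 level (CPM, vertical axis) against somite number in single Smchd1wt (circles, n = 21) and Smchd1matΔ embryos (triangles, n = 16), with lines through the stage means. Means at 11 somites were 58.9 CPM in Smchd1wt and 48.9 CPM in Smchd1matΔ embryos, against 22.3 and 18.6 CPM at 6 somites.

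The mean of Btg2 at 11 somites was 2.64 times that at 6 somites in Smchd1wt and 2.64 times in Smchd1matΔ embryos, or 1.97 times in the latter without the libraries rich in ribosomal RNA. The means were 22.7 ± 4.18 CPM (SD, n = 11) at 6 to 8 somites and 46.2 ± 14.3 CPM (SD, n = 10) at 9 to 11 somites in Smchd1wt embryos. They were 22.0 ± 5.82 CPM (SD, n = 9) and 42.5 ± 7.05 CPM (SD, n = 7) in Smchd1matΔ embryos. The difference in slope, Smchd1matΔ minus Smchd1wt, was 0.020 log2 units per somite with a 95% interval of -0.092 to 0.13. It was -0.046 without the libraries rich in ribosomal RNA and -0.061 without the embryos with 6 somites. For the difference in slope 0% of 15978 genes were called, and 3.92% had an unadjusted p under 0.05 by edgeR's quasi-likelihood test.

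Other RNAs also changed with stage in the same embryos. Summed primitive erythroid markers had medians of 108 and 878 CPM at 6 to 8 and 9 to 11 somites in Smchd1wt embryos and 114 and 715 CPM in Smchd1matΔ embryos. Summed endoderm markers had medians of 1396 and 299 CPM in Smchd1wt and 1176 and 262 CPM in Smchd1matΔ embryos. In Smchd1matΔ embryos 3 of 6 endothelial markers rose (Cldn5, Tal1 and Cdh5), as did 1 of 6 erythroid markers (Hbb-y). Of the 8 tailbud markers Cyp26a1 rose and Nkx1-2 fell. In Smchd1wt embryos the same 4 erythroid and endothelial markers rose, and 4 of 8 endoderm markers fell (Cdh1, Apob, Ttr and Sox17). Of the 5 neural markers that passed the filter on low counts, 1 (Sox1) rose in Smchd1wt and 0 in Smchd1matΔ embryos, and of the somite markers that passed it 0 of 2 and 0 of 3 were called. The part of these RNAs in the slopes of the 9 genes was not tested. In bulk tissue, fewer cells of a type and less RNA per cell cannot be told apart.

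Cdkn1a (ENSMUSG00000023067, chromosome 17, 29090976 to 29100727), which encodes the cyclin-dependent kinase inhibitor p21, did not follow Btg2. In Smchd1wt embryos it was at 26.3, 29.1, 25.7 and 25.97 CPM at 6 somites, at 26.3, 20.4, 34.5 and 23.5 CPM at 7 somites, and at 26.3, 21.2 and 23.8 CPM at 8 somites. It was at 22.6, 24.2 and 16.8 CPM at 9 somites, at 13.9, 21.5, 21.5 and 21.3 CPM at 10 somites, and at 15.8, 16.05 and 24.2 CPM at 11 somites. The later embryos were mostly lower, with overlap, and the slope of -0.12 per somite (SE 0.030) is a description. In Smchd1matΔ embryos Cdkn1a was at 25.5, 18.7, 18.6 and 22.7 CPM at 6 somites, at 33.6, 24.8 and 24.5 CPM at 7 somites, and at 30.9 and 22.2 CPM at 8 somites. It was at 25.1 and 30.99 CPM at 9 somites, at 24.8, 17.5 and 25.1 CPM at 10 somites, and at 30.6 and 24.998 CPM at 11 somites. Early and late embryos covered the same range there, and the slope was 0.022 per somite (SE 0.039, edgeR's quasi-likelihood test, adjusted p = 0.827), or 0.0020 without the libraries rich in ribosomal RNA. The difference in slope was 0.14 per somite with a 95% interval of 0.046 to 0.24, given with no test because it contains the Smchd1wt slope. Cdkn1a shares 273 exon bases with AC167363.2, a locus of undetermined type on the other strand, and the counts did not use strand. AC167363.2 had 1058 counts in all libraries against 12773 for Cdkn1a.

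Ccng1 (ENSMUSG00000020326, chromosome 11, 40748552 to 40755311) encodes cyclin G1, which recruits a phosphatase to MDM2. It lay between 36.97 and 65.0 CPM in Smchd1wt and between 29.6 and 67.9 CPM in Smchd1matΔ embryos, and the genotypes overlapped at each stage. Slopes were 0.045 per somite (SE 0.026) in Smchd1wt and 0.065 (SE 0.036, edgeR's quasi-likelihood test, adjusted p = 0.371) in Smchd1matΔ embryos, the latter 0.10 without the libraries rich in ribosomal RNA. Mdm2 (ENSMUSG00000020184, chromosome 10, 117688875 to 117710758) is both a p53 target and the main inhibitor of p53. In Smchd1matΔ embryos Mdm2 was at 64.2, 47.9, 33.97 and 60.1 CPM at 6 somites, and all 7 embryos with 9 to 11 somites lay at 61.2 to 77.98 CPM. The lowest value, 33.97 CPM from 31 counts, came from the shallowest library. The slope was 0.070 per somite (SE 0.026, unadjusted p = 0.0153, adjusted p = 0.163, edgeR's quasi-likelihood test) and did not pass. In Smchd1wt embryos Mdm2 lay at 52.9 to 76.7 CPM with a slope of 0.028 (SE 0.019).

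Pmaip1 and Bbc3 encode NOXA and PUMA, which promote apoptosis by binding BCL2 proteins, and Phlda3 encodes an inhibitor of the kinase AKT. Bbc3 (ENSMUSG00000002083, chromosome 7, 16308393 to 16318205) was the gene of lowest level. In Smchd1wt embryos it was at 1.04 to 5.23 CPM (median 3.04, n = 11) at 6 to 8 somites and 3.28 to 7.01 CPM (median 5.09, n = 10) at 9 to 11 somites. In Smchd1matΔ embryos it was at 0 to 5.66 CPM (median 3.99, n = 9) and 3.49 to 6.44 CPM (median 5.42, n = 7). The windows overlapped in both genotypes, with higher medians in the later window. Slopes were 0.18 per somite (SE 0.059) in Smchd1wt and 0.19 (SE 0.076, unadjusted p = 0.0244, adjusted p = 0.206, edgeR's quasi-likelihood test) in Smchd1matΔ embryos. The embryo at 0 CPM was again the library with 916444 counts, in which 3 counts would correspond to 3.29 CPM, and the other 36 embryos had 8 to 483 counts.

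Phlda3 (ENSMUSG00000041801, chromosome 1, 135766119 to 135769136) lay lowest in the latest Smchd1wt embryos. It was at 11.5, 15.5, 13.2 and 12.4 CPM at 6 somites and at 7.40, 4.80 and 5.52 CPM at 11 somites in Smchd1wt embryos, and these stages did not overlap. In Smchd1matΔ embryos it was at 17.02, 9.73, 6.58 and 7.78 CPM at 6 somites and at 9.31 and 8.35 CPM at 11 somites, within the same range. The ratio of the mean at 11 over that at 6 somites was 0.449 in Smchd1wt and 0.859 in Smchd1matΔ embryos. The values of 17.02 and 9.73 CPM came from the libraries rich in ribosomal RNA, and without them the Smchd1matΔ ratio turned to 1.23, from means of 7.18 and 8.83 CPM (n = 2 each). Slopes were -0.18 per somite (SE 0.043) in Smchd1wt and -0.10 (SE 0.072, edgeR's quasi-likelihood test, adjusted p = 0.504) in Smchd1matΔ embryos, with a difference of 0.073 and a 95% interval of -0.086 to 0.23. Without the same 2 libraries the Smchd1matΔ slope was -0.049 and the difference 0.13. Pmaip1 (ENSMUSG00000024521, chromosome 18, 66458533 to 66465565) was not monotonic in Smchd1wt embryos, whose means were 22.3, 17.05, 13.5, 15.4, 20.1 and 26.3 CPM from 6 to 11 somites. In Smchd1matΔ embryos the means were 18.8, 22.7, 16.7, 12.7, 20.2 and 20.04 CPM. A straight line describes such a course poorly, and the slopes were 0.048 (SE 0.048) and -0.020 (SE 0.056, edgeR's quasi-likelihood test, adjusted p = 0.903).

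Trp53inp1 encodes a nuclear protein that takes part in the phosphorylation of p53, and Sesn2 encodes sestrin 2, a leucine sensor that restrains the kinase complex mTORC1. Trp53inp1 (ENSMUSG00000028211, chromosome 4, 11156431 to 11174379) lay at 6.57 to 22.4 CPM in Smchd1wt and 11.9 to 29.1 CPM in Smchd1matΔ embryos. Its slopes were 0.060 per somite (SE 0.036) and 0.090 (SE 0.051, edgeR's quasi-likelihood test, adjusted p = 0.375). Sesn2 (ENSMUSG00000028893, chromosome 4, 132492032 to 132510501) lay at 9.20 to 21.9 CPM and 12.1 to 28.5 CPM. Its slopes were 0.021 per somite (SE 0.030) and -0.080 (SE 0.043, edgeR's quasi-likelihood test, adjusted p = 0.346), and the difference of -0.096 had a 95% interval of -0.20 to 0.0045. The Smchd1matΔ slope of Sesn2 was -0.044 and the difference -0.059 without the libraries rich in ribosomal RNA. Its Smchd1wt slope was 0.0070 without the shallower Smchd1wt library and turned to -0.0083 in females alone. The lowest values of both genes in Smchd1wt embryos, 6.57 and 9.20 CPM, came from the library with 3061180 counts.

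**Figure D2:**
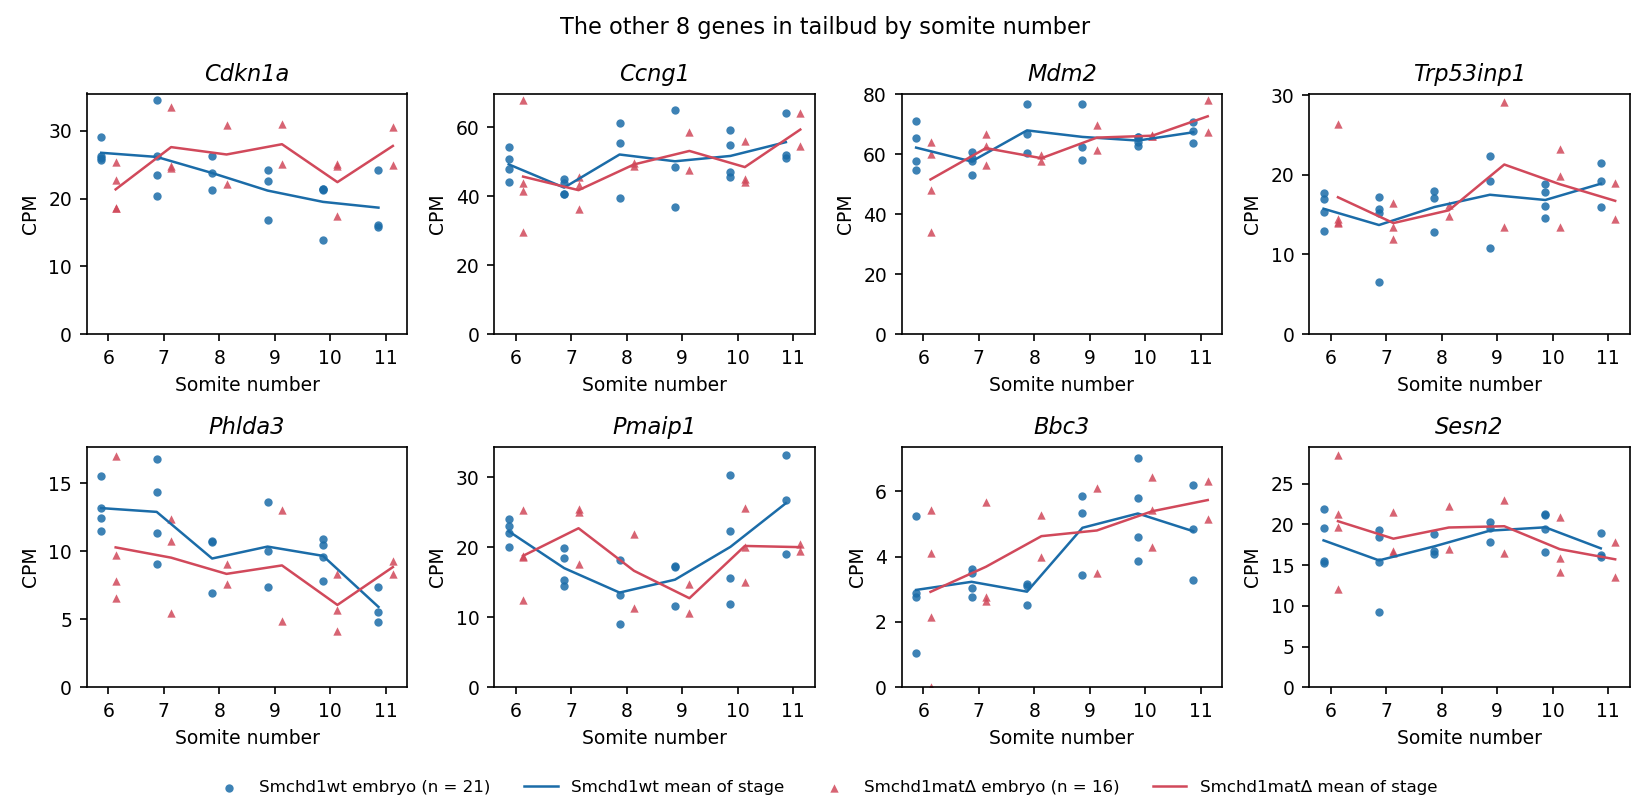
Levels (CPM, vertical axes from 0) of the other 8 genes against somite number in single Smchd1wt (circles, n = 21) and Smchd1matΔ embryos (triangles, n = 16), with lines through the stage means. Bbc3 means were higher late than early in both genotypes, while Cdkn1a and Phlda3 means ended lower than they began in Smchd1wt embryos, at 0.697 and 0.449 of the mean at 6 somites.

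Of the 8 genes besides Btg2, 0 were called for their slope in Smchd1matΔ embryos, where 1.93% of all genes were called as rising and 1.14% as falling. An unadjusted p under 0.05 was found for 2 of the 8 (Mdm2 and Bbc3) and for 17.5% of all genes. The median slope of the 9 was 0.065 per somite against 0.0024 over all genes tested, with 6 positive and 3 negative. In Smchd1wt embryos the median was 0.045 against -0.0018, with 7 positive and 2 negative. These medians and signs include Btg2, which was chosen by its rise. They are descriptions with no test and do not show that the set rises.

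**Figure D3:**
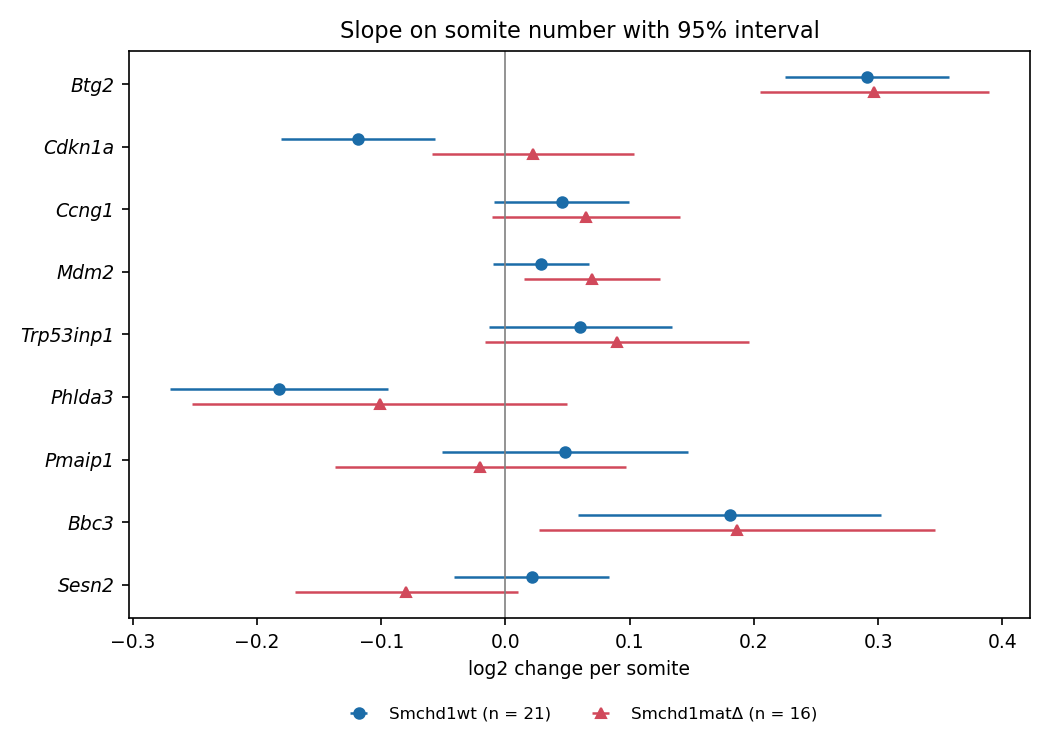
Slope on somite number (log2 change per somite, horizontal axis) of each gene in Smchd1wt (circles, n = 21) and Smchd1matΔ embryos (triangles, n = 16), with 95% intervals from edgeR as bars. Btg2 had slopes of 0.29 and 0.30, Cdkn1a of -0.12 and 0.022 and Phlda3 of -0.18 and -0.10 in Smchd1wt and Smchd1matΔ embryos. The Smchd1wt intervals and those of Btg2 are descriptions with no test.

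The gene for p53 itself, Trp53, was at 41.2 ± 4.12 RPKM (SD, n = 37), reads per kilobase of exon and 1e6 counts, and had slopes of -0.0026 per somite (SE 0.021, adjusted p = 0.965) in Smchd1wt and -0.019 (SE 0.018, adjusted p = 0.618) in Smchd1matΔ embryos by edgeR's quasi-likelihood test. Of 17 p53 regulators and relatives tested, Trp53 included, 0 were called in either genotype, with 1 and 2 at an unadjusted p under 0.05. Among all genes, 21.4% in Smchd1wt and 17.5% in Smchd1matΔ embryos had an unadjusted p under 0.05. Trp63, a relative of p53, was at 0.12 per somite (adjusted p = 0.0621) in Smchd1wt and 0.15 (adjusted p = 0.144) in Smchd1matΔ embryos. Cdkn2a, whose ARF product inhibits MDM2, had a slope of -0.16 (adjusted p = 0.431) in Smchd1wt embryos, and the checkpoint kinase gene Chek1 of 0.063 (adjusted p = 0.0792) in Smchd1matΔ embryos.

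Of 33 other p53 target genes tested, 1 rose and 0 fell in each genotype, and the gene differed. An unadjusted p under 0.05 was found for 7 in Smchd1wt and 5 in Smchd1matΔ embryos, against 21.4% and 17.5% of all genes. Perp, which encodes a protein of cell junctions, rose in Smchd1wt embryos by 0.14 per somite (SE 0.030, edgeR's quasi-likelihood test, adjusted p = 0.00497), with 0.19 (SE 0.077, adjusted p = 0.201) in Smchd1matΔ embryos. Ei24, which encodes a protein of the endoplasmic reticulum, rose in Smchd1matΔ embryos by 0.061 (SE 0.015, adjusted p = 0.0272), with 0.021 (SE 0.017, adjusted p = 0.515) in Smchd1wt embryos. Neither difference in slope between genotypes was called. The median slope of the list was -0.0087 in Smchd1wt and -0.0097 in Smchd1matΔ embryos, near the medians of all genes.

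Genes of the cell cycle that p21 is known to lower gave 0 calls among 17 in either genotype. In each genotype 2 had an unadjusted p under 0.05, against 21.4% and 17.5% of all genes in Smchd1wt and Smchd1matΔ embryos. The smallest p-values belonged to Mcm5, of the replicative helicase (-0.045 per somite, adjusted p = 0.0877), and the cyclin gene Ccnb2 (-0.030, adjusted p = 0.231) in Smchd1wt embryos. In Smchd1matΔ embryos they belonged to the mitotic kinase gene Plk1 (-0.048, adjusted p = 0.202) and the cyclin gene Ccne1 (-0.064, adjusted p = 0.212). Among 4 tested relatives of Btg2 in the BTG/TOB family, Tob1 rose in Smchd1wt embryos by 0.16 per somite (SE 0.044, edgeR's quasi-likelihood test, adjusted p = 0.0252). In Smchd1matΔ embryos Tob1 had a slope of 0.18 (SE 0.054, adjusted p = 0.0760) and Tob2 of -0.056 (adjusted p = 0.334), and neither passed. Btg4 was at 0 counts in all embryos.

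Of 12 genes of the CCR4-NOT deadenylase and poly(A)-binding protein, through which BTG2 acts, 0 were called in either genotype. An unadjusted p under 0.05 was found for 3 in Smchd1wt and 4 in Smchd1matΔ embryos, against 21.4% and 17.5% of all genes. Cnot6l, a catalytic subunit, had slopes of 0.084 (adjusted p = 0.0982) in Smchd1wt and 0.19 (adjusted p = 0.0743) in Smchd1matΔ embryos, and Cnot11 of 0.051 (adjusted p = 0.0904) and 0.052 (adjusted p = 0.161). Immediate early genes, the class of growth factor response genes to which Btg2 is often counted, gave 1 call among 16 in Smchd1wt embryos. This was Jun, which rose by 0.18 per somite (SE 0.043, edgeR's quasi-likelihood test, adjusted p = 0.0116). Among 15 tested in Smchd1matΔ embryos 0 were called, with Myc at -0.13 (adjusted p = 0.0665) and Ccn1 at -0.079 (adjusted p = 0.195). Of these immediate early genes, 7 of the 16 and 3 of the 15 had an unadjusted p under 0.05.

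Genotypes were then compared at matched somite number, with sex in the model. Over all stages 0 of the 9 genes were called and 0 had an unadjusted p under 0.05. Of 15978 genes, 0.0125% were called and 5.67% had an unadjusted p under 0.05. Btg2 differed by -0.082 on the log2 scale (SE 0.096, 95% interval -0.28 to 0.11, adjusted p = 0.932, edgeR's quasi-likelihood test), and 8 of 16 Smchd1matΔ embryos lay above the Smchd1wt mean of their stage. Without the libraries rich in ribosomal RNA it differed by 0.0058. Intervals of the other 8 genes all included 0 and reached at most 0.52 in size. Phlda3 had a difference of -0.23 (95% interval -0.52 to 0.057), with 4 of 16 embryos above the Smchd1wt mean, and Bbc3 of 0.19 (-0.14 to 0.52), with 10 of 16. The intervals of Ccng1, -0.17 to 0.13, and Mdm2, -0.14 to 0.085, were the narrowest. Cdkn1a differed by 0.15, Sesn2 by 0.067, Trp53inp1 by 0.032 and Pmaip1 by -0.037. None of the 9 was called under any of 45 alternative settings, DESeq2's Wald test among them.

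**Figure D4:**
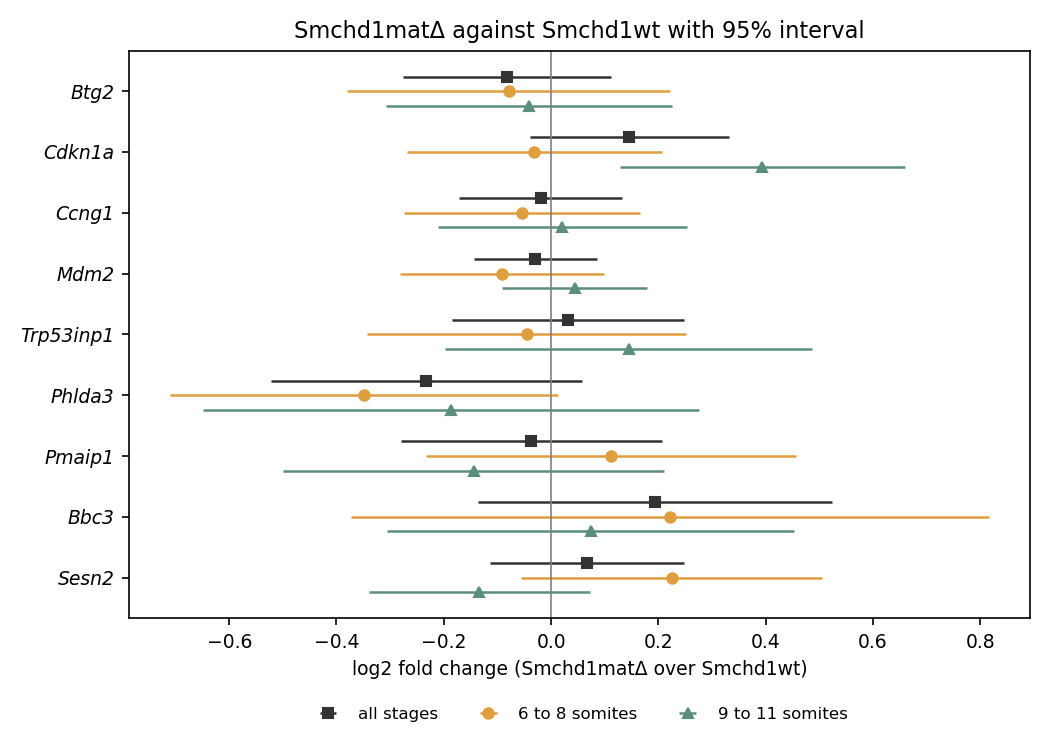
Difference between genotypes (log2 fold change, Smchd1matΔ over Smchd1wt, horizontal axis) of each gene over all stages (squares), at 6 to 8 somites (circles) and at 9 to 11 somites (triangles), with 95% intervals from edgeR as bars. The one interval that excludes 0 is that of Cdkn1a at 9 to 11 somites, 0.13 to 0.66, which did not pass the adjusted threshold.

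At 6 to 8 somites 0 of the 9 genes were called and 0 had an unadjusted p under 0.05. Of 15652 genes, 0.00639% were called and 7.77% had an unadjusted p under 0.05. The smallest adjusted p, 0.646 by edgeR's quasi-likelihood test, was that of Phlda3 (-0.35, SE 0.17), with 1 of 9 Smchd1matΔ embryos above the Smchd1wt mean of its stage. At 9 to 11 somites 0 were called, where 0.00635% of 15757 genes were. An unadjusted p under 0.05 was found for 1.88% of all genes and for 1 of the 9. This was Cdkn1a, at 13.9 to 24.2 CPM in 10 Smchd1wt and 17.5 to 30.99 CPM in 7 Smchd1matΔ embryos, with 6 of 7 above the Smchd1wt mean of their stage. Its difference was 0.39 (SE 0.13, 95% interval 0.13 to 0.66, unadjusted p = 0.00613, adjusted p = 0.9998, edgeR's quasi-likelihood test), and it failed the correction. The groups overlapped, and leaving out single embryos or changing the processing gave differences of 0.32 to 0.46. None of the 9 genes was called in either window under the alternative settings. Btg2 differed by -0.079 (SE 0.15) in the earlier window, or 0.11 without the libraries rich in ribosomal RNA, and by -0.041 (SE 0.13) in the later window.

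The difference between the windows contains the rise in Smchd1wt embryos and is given with intervals alone. Later minus earlier window, it was 0.44 for Cdkn1a (95% interval 0.088 to 0.79), -0.36 for Sesn2 (-0.72 to -0.0082) and 0.048 for Btg2 (-0.35 to 0.45). Without the libraries rich in ribosomal RNA it was 0.40 for Cdkn1a, -0.27 for Sesn2 and -0.14 for Btg2. With all libraries the other genes lay between -0.24 for Pmaip1 and 0.20 for Trp53inp1. Over all genes 0% of 16265 were called for it, and 3.55% had an unadjusted p under 0.05 by edgeR's quasi-likelihood test.

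Among the other lists, 0 genes were called between genotypes over all stages or in either window. Over all stages the smallest p among other p53 targets was that of Ddit4, a stress-induced inhibitor of mTORC1, at 0.44 (SE 0.11, adjusted p = 0.670), followed by Psrc1 at 0.14 (adjusted p = 0.867). Of the p53 regulators the phosphatase gene Ppm1d was at -0.099 (adjusted p = 0.868) and the kinase gene Hipk2 at 0.17 (adjusted p = 0.872), all by edgeR's quasi-likelihood test. The mitotic kinase gene Aurkb was at 0.10 (adjusted p = 0.867), the immediate early gene Egr1 at -0.48 (adjusted p = 0.867), Tob1 at -0.20 (adjusted p = 0.874) and Cnot6l at -0.23 (adjusted p = 0.867).

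Sex was compared because it was unbalanced over stages. Of the 9 genes 0 were called, with 0 at an unadjusted p under 0.05. Among all genes 0.219% were called and 3.3% had an unadjusted p under 0.05. Btg2 was at 11.2 to 80.4 CPM (median 28.5) in 24 females and 18.4 to 48.3 CPM (median 27.6) in 13 males. The male minus female difference was -0.23 (SE 0.11, 95% interval -0.46 to 2.97e-05, unadjusted p = 0.05003, adjusted p = 1, edgeR's quasi-likelihood test). This difference was -0.26 for Pmaip1, -0.23 for Trp53inp1, -0.20 for Bbc3, -0.041 for Ccng1 and -0.022 for Cdkn1a. For Phlda3, Sesn2 and Mdm2 it was 0.089, 0.068 and 0.011.

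Levels were compared between genes per length, as RPKM over all 37 embryos. Ccng1 stood highest at 14.1 ± 2.50, followed by Mdm2 at 12.4 ± 1.58, Btg2 at 11.9 ± 5.15, Pmaip1 at 6.99 ± 2.04, Cdkn1a at 6.70 ± 1.35, Phlda3 at 6.24 ± 2.13, Sesn2 at 5.22 ± 0.998, Trp53inp1 at 2.57 ± 0.650 and Bbc3 at 1.95 ± 0.752 (mean ± SD, n = 37). Sesn2 lay above Trp53inp1 in 36 of 37 embryos, Ccng1 above Mdm2 in 31 and Btg2 above Pmaip1 in 30. Neighbours in this order overlapped within their spread elsewhere, for example Pmaip1 above Cdkn1a in 20 and Mdm2 above Btg2 in 22 of 37 embryos. Within the BTG/TOB family Btg2 stood above Btg1 (7.00 ± 1.55), Btg3 (4.84 ± 0.651), Tob1 (4.82 ± 1.51) and Tob2 (4.28 ± 0.615). Btg2 also had the widest spread of the 9 genes in RPKM.

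The genes whose log2 CPM followed Btg2 most closely over the 37 embryos were Gm38287 (Pearson r = 0.931), Adamtsl2 (0.912), Nrarp (0.909), Hoxd8 (0.906) and Stra6l (0.886), out of 15978. Gm38287 lies at the Nrarp locus on the other strand and can share its reads. All 37 embryos enter these values and stage is shared by all genes, so they are descriptions with no test. These 5 were picked as the highest, so any other gene lies below them. The other 8 genes had r from -0.566 for Phlda3 (rank 15327) to 0.474 for Mdm2 (rank 1587) and 0.474 for Trp53inp1 (rank 1581). When the mean of each genotype and stage was removed, the 5 genes most like Btg2 were Csnk1g1 (0.812), Gm38287 (0.792), Atxn3 (0.762), Stam (0.755) and Dcbld2 (0.751).

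It was then asked whether the 9 genes varied together among embryos of the same genotype and stage. Sex was not removed or held fixed in these pairs. Of 36 pairs, 27 had a positive and 9 a negative Pearson r of log2 CPM with group means removed, from -0.596 to 0.722 with a median of 0.105. No pair passed after adjustment over the 36 pairs, by Pearson or Spearman, and 6 had an unadjusted p under 0.05 by a permutation test of embryos within groups. Pairs of other genes were not counted in this way, so whether these counts are particular to the 9 genes was not tested. Ccng1 and Mdm2 had the highest value (r = 0.722, p = 0.00299, adjusted p = 0.108, Spearman rho = 0.479 with p = 0.0200 and adjusted p = 0.169, permutation test), and r was 0.518 without the 2 embryos farthest from the median of Ccng1. Phlda3 and Trp53inp1 had the lowest (r = -0.596, p = 0.00937, adjusted p = 0.151, rho = -0.548 with p = 0.0113 and adjusted p = 0.169, permutation test), with r = -0.541 without the 2 embryos farthest from the median of Trp53inp1.

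Btg2 took part in 3 of the 6 pairs. It had r = 0.494 with Trp53inp1 (p = 0.0194, rho = 0.504 with p = 0.0116), r = -0.496 with Phlda3 (p = 0.0252, rho = -0.459 with p = 0.0281) and r = 0.465 with Pmaip1 (p = 0.0168, rho = 0.442 with p = 0.0244), all by permutation test with adjusted p = 0.151 for r and 0.169 for rho. Without the 2 embryos farthest from the median of Btg2 these were 0.556, -0.525 and 0.368. Male minus female differences were -0.23 for Btg2, -0.23 for Trp53inp1, -0.26 for Pmaip1 and 0.089 for Phlda3. The part of sex in these correlations was not tested. In the 21 Smchd1wt embryos alone, Btg2 and Pmaip1 had r = 0.737 (adjusted p = 0.0389, permutation test) and rho = 0.748 (adjusted p = 0.0569, permutation test). Mdm2 and Bbc3 had r = -0.646 (adjusted p = 0.133, permutation test) in the Smchd1wt and r = 0.903 (adjusted p = 0.369, permutation test) in the 16 Smchd1matΔ embryos, where the shallowest library held the lowest value of both genes. Without that library, left out after the data were seen, r was 0.603 (adjusted p = 0.684, permutation test). The difference between genotypes in these correlations was not tested.

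**Figure D5:**
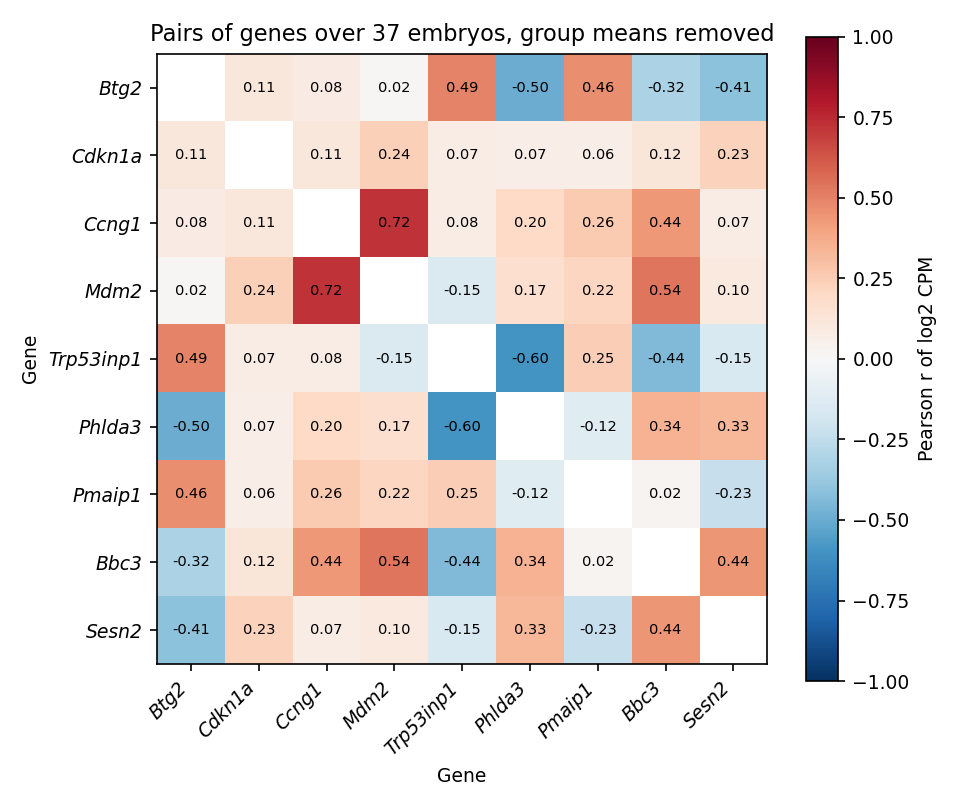
Pearson r between the log2 CPM of each pair of genes (rows and columns) over 37 embryos after the mean of each genotype and stage was removed. The highest value is that of Ccng1 with Mdm2, 0.722, and the lowest that of Phlda3 with Trp53inp1, -0.596.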

How the data were processed

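Tailbud RNA of 37 embryos was profiled, one library per embryo. As the labels and methods state, the authors prepared poly(A) libraries with a stranded or an unstranded TruSeq kit (which library had which is not given in the sources used here), trimmed single-end reads with Trim Galore 0.4.4, mapped them to GRCm38.p6 with HISAT2 2.0.5 and counted genes in SeqMonk. The deposited table holds raw counts per gene, whole numbers that were not normalised, and its coordinates are GRCm38. The counts were treated as not using strand, so overlapping genes are uncertain. Of 35591 rows, 49 repeated an identifier and were dropped. The authors' log2 RPKM table of Hox genes and their table of p-values, false discovery rates and fold changes were not used.

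Counts were tested with edgeR 4.0.16 in R 4.3.3 (quasi-likelihood test, filterByExpr with a minimum count of 10, TMM, Benjamini-Hochberg over all genes tested, threshold 0.05, two-sided). Stage as a factor and sex were covariates between genotypes, sex alone for slopes on somite number. Stages were pooled as 6 to 8 and 9 to 11 somites, as in the study. DESeq2 1.42.0, other size factors, no filter, females alone, no sex term, a replicate block and leaving out libraries were alternatives. Log2 CPM had a prior count of 2. RPKM was computed with GENCODE M21 exon lengths. Pairs of genes were tested with 100000 permutations of embryos within genotype and stage, and sex was not removed. The fits and the pair test were tested on simulated data.

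The 9 genes and all lists were chosen with earlier results of these data known. A test of the Btg2 slope in Smchd1matΔ embryos had been planned and is not given, because the choice of Btg2 may have rested on these embryos too. All 9 were fitted in every comparison. Where not all are printed, Btg2 is given with genes picked for the size or precision of their differences. From other lists up to 4 called genes are named, smallest p first, or up to 2 that did not pass, and for Btg2 the 5 genes most like it. No pair of libraries within a group agreed within sampling noise (chi-square per degree of freedom 5.12 to 72.3 over 42 pairs), and each was counted once. Embryos were taken as separate animals, and litters are not given in the sources used here. Intervals and the floor of 3 counts cover counting error in reads without molecular identifiers, or the spread between embryos where edgeR gave them. Depth, 0.916 to 80.6 in units of 1e6 counts, was lowest at 6 somites in Smchd1matΔ embryos, where genes of low level such as Bbc3 are least certain. Whether replicate numbers pair embryos was checked, and no general pairing was seen, though the small groups could hide a partial one.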

Additional observations from a re-analysis of the deposited data

Results flagged for a closer look

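Embryos that stood apart from the rest of their group were looked for in the 36 sets of 4 embryos that the 9 genes give (6 somites in both genotypes, 7 and 10 somites in Smchd1wt), and 3 were found, where chance alone flags about 1 set in 20. Trp53inp1 in Smchd1matΔ replicate 3 at 6 somites was at 26.3 CPM, against 13.9 to 14.4 CPM in the other 3 embryos, and rested on 24 counts in the shallowest library. Trp53inp1 in Smchd1wt replicate 2 at 7 somites was at 6.57 CPM, from 20 counts in the library with 3061180 counts, against 15.2 to 17.2 CPM. Cdkn1a in Smchd1wt replicate 1 at 10 somites was at 13.9 CPM, from 117 counts, against 21.3 to 21.5 CPM, and Trp53 was also lowest in that library, at 118 CPM.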

How the results depend on the processing

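The absence of calls among the 9 genes between genotypes and sexes, and among the 8 genes besides Btg2 for the Smchd1matΔ slope, held under every alternative run. The Smchd1matΔ slope of Btg2, which has no test, was 0.24 without the 2 libraries rich in ribosomal RNA and 0.24 to 0.33 over 25 alternatives. The difference in Btg2 slope, 0.020, was -0.046 without the 2 libraries rich in ribosomal RNA and -0.061 without the embryos with 6 somites. In Smchd1wt embryos alone 1 of 36 gene pairs passed (Btg2 with Pmaip1), against 0 in all embryos. Directions turned for genes far from the threshold, and the cause was not tested. Between genotypes over all stages, Btg2 was at 0.0058 without the libraries rich in ribosomal RNA, and without the 2 shallowest libraries Ccng1 was at 0.0063 and Trp53inp1 at -0.022. Leaving out single embryos gave -0.060 to 0.0064 for Ccng1, -0.035 to 0.067 for Trp53inp1 and -0.092 to 0.0058 for Pmaip1. The Smchd1matΔ slope of Cdkn1a was -0.033 without the embryos with 6 somites, and that of Pmaip1 -0.058 to 0.0035 when single embryos were left out.

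Counts over all genes moved more. The 475 genes called for a Smchd1matΔ slope became 1127 by DESeq2, 175 in females alone, 301 without the libraries rich in ribosomal RNA, 234 without the embryos with 6 somites and 254 to 638 without single embryos, lowest without replicate 2 at 11 somites. It was also low without replicate 1 at 7 (297) or replicate 3 at 10 somites (312). In Smchd1wt embryos 1006 became 1802 in females alone, 96 without 6 somites, 1920 without replicate 1 at 10 somites and 668 without replicate 1 at 6 somites. At 6 to 8 somites 1 gene became 39 with no filter and 37 by DESeq2. Without a filter 39 genes were called for the difference in slope. Replicate numbers showed no general pairing of embryos (correlation of deviations -0.286 to 0.582 over 16 same-number pairs, 4 above 0.1, and 4 embryos closest to their own number). With the replicate block 520 genes had a Smchd1matΔ slope, the Btg2 slope was 0.33, and 0 of the 9 genes were called between genotypes.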
